A study of Homo sapiens with 6 samples.

Results

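The D and E cyclins, their kinases, the inhibitor p27 and the retinoblastoma protein RB form the switch that lets a cell leave G1 and copy its DNA. The set described here holds 10 genes, CCND1, CCND2, CCND3, CCNE1, CCNE2, CDK4, CDK6, CDK2, CDKN1B and RB1, chosen by symbol from the 54261 symbols of a count table, and all 10 were found in it. RNA was sequenced from the human lung cancer line PC9/GR, in a series on resistance to EGFR inhibitors (EGFR is the epidermal growth factor receptor). Of the 6 libraries, 3 came from cells given a control small interfering RNA (siRNA; si-NC in the labels) and 3 from cells given an siRNA that targets the long non-coding RNA MYLK-AS1. Both groups are the same line, with no other treatment named. Sequence, dose and harvest time of the siRNAs are not stated in the labels.

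In G1, D cyclins bind CDK4 or CDK6 and start the phosphorylation of RB, which otherwise holds E2F transcription factors in check. Released E2F factors turn on cyclin E and the genes of DNA synthesis, and cyclin E with CDK2 completes the phosphorylation of RB. Inhibitors of the INK4 family block CDK4 and CDK6, while p27, the product of CDKN1B, mainly restrains CDK2. In lung adenocarcinoma this switch lies downstream of growth factor receptors, since their signalling raises CCND1.

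Between 7551303 and 11055408 reads were counted per library. MYLK-AS1 was counted 20, 16 and 19 times in the control replicates and 0, 5 and 4 times in the knockdown replicates (log2 fold change -2.43, SE 0.60, adjusted p = 0.00326). The labels do not say that the replicates came from separate cultures, so p-values reflect the spread of these libraries alone, and that spread may be technical. The labelled cell type was checked with 9 epithelial and lung adenocarcinoma markers. The keratins KRT7, KRT8 and KRT18 stood at 2340 to 4677 CPM (counts scaled to a common library size), whereas SFTPB was listed at 0 in all 6 libraries, NKX2-1 reached at most 0.913 CPM and EGFR at most 3.98 CPM. The adhesion genes CDH1 (-1.11, adjusted p = 0.000111) and EPCAM (-1.36, adjusted p = 0.0199) fell, EPCAM from a level of 1.28 to 1.67 CPM, and the keratins fell too (KRT7 -0.54, KRT8 -0.67 and KRT18 -0.78). The summed level of these 9 markers was 11771 to 13775 CPM in control libraries and 7516 to 8127 CPM in the knockdown, nearly all of it from the keratins. The lung markers NKX2-1, SFTPB and NAPSA (1.09 to 2.28 CPM) were low or at 0, so the sum does not speak to lung identity. For 8 markers of blood, vessel and stromal cells the sum was 54.1 to 70.5 CPM in control libraries and 46.8 to 49.6 CPM in the knockdown, with PTPRC, CD3E and COL1A2 at 0 throughout. In that list CD14 fell (-0.71, adjusted p = 0.000909) and COL1A1 did not pass (0.13, adjusted p = 0.493). The part of these shifts in the results was not tested.

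After the knockdown the set split. CCND1 rose 4.84-fold, while CCND3 fell to 61.5% of its control level, CDK6 to 54.2% and CDK2 to 52.1%. CCNE1, CCNE2, CDK4, CDKN1B and RB1 did not pass the test, and CCND2 had too few reads to be tested. So 1 member rose and 3 fell among the 9 tested (edgeR's quasi-likelihood test, adjusted p of 0.05 over 15391 genes). Of all tested genes 42% passed, 21.3% upward and 20.7% downward, so the number of members called is close to that of tested genes in general. In 6 of the 9 the CPM ranges of control and knockdown lay apart, 1 higher and 5 lower in the knockdown, beside 52.2% of all tested genes (26.1% higher and 26.1% lower). In these bulk samples, fewer cells of a type and less RNA per cell cannot be told apart.

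**Figure D1:**
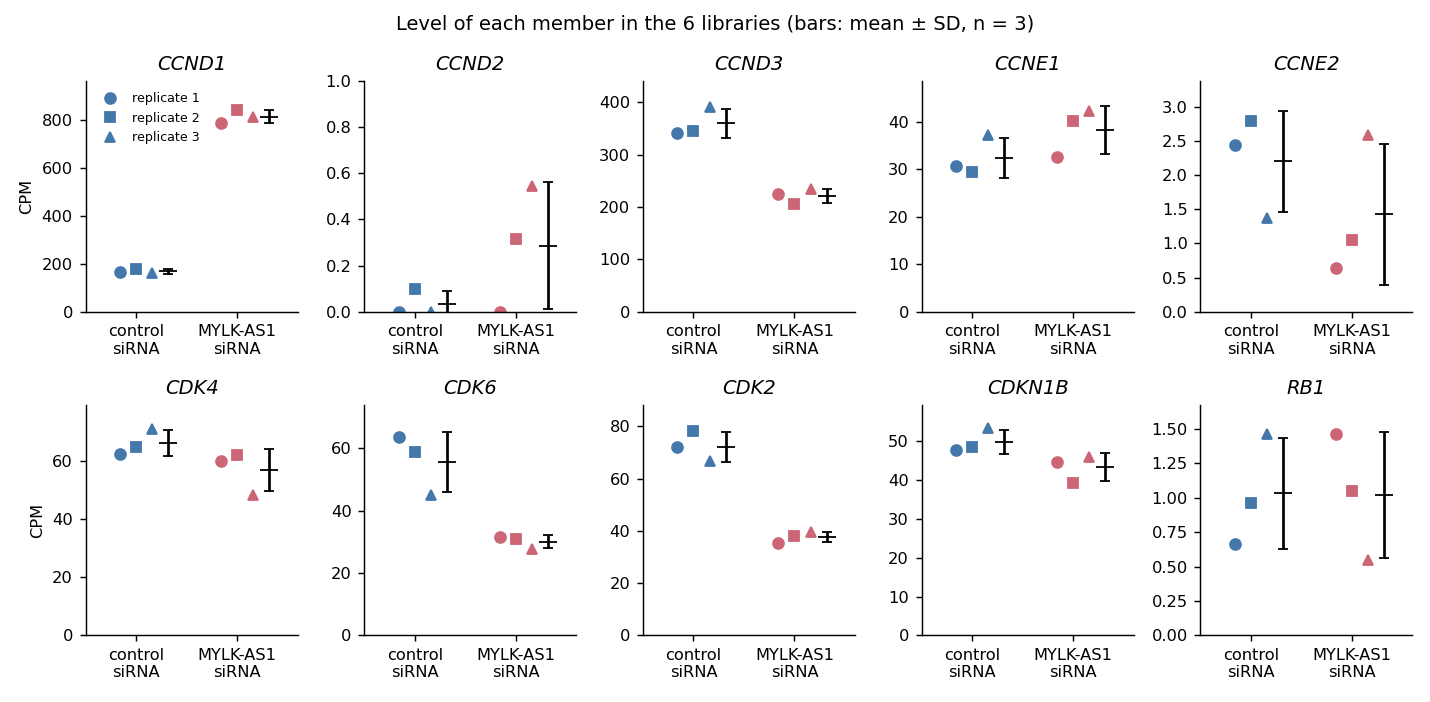
Level of each of the 10 genes in CPM (linear axis from 0) in the 3 control and the 3 knockdown libraries, one symbol per replicate, with the mean ± SD beside them. CCND1 lies between 160.5 and 179 CPM in control libraries and between 790 and 842 CPM in the knockdown. CCND3, CDK6 and CDK2 lie lower in every knockdown library, and so do CDK4 and CDKN1B by narrow gaps.

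Cyclin D1, the product of CCND1, is the D cyclin most directly tied to growth factor signalling. CCND1 (ENSG00000110092.3, chromosome 11 from 69641087 to 69654474, plus strand, GRCh38) had 166, 179 and 160.5 CPM in control replicates 1 to 3 and 790, 842 and 814 CPM in knockdown replicates 1 to 3. The groups lay far apart, with little spread inside each. The mean went from 169 ± 9.67 to 815 ± 26.5 CPM (SD, n = 3 per group; log2 fold change 2.27, SE 0.09, adjusted p = 1.13e-11). Only 54 of the 15391 tested genes, 0.351%, had a log2 fold change at least that high, CCND1 included. At its 3' end CCND1 shares 497 exon bases with LTO1 on the opposite strand, listed under its older symbol ORAOV1. ORAOV1 stood at 14.0 ± 0.995 CPM in control libraries and 17.3 ± 2.08 CPM in the knockdown (SD, n = 3 per group; adjusted p = 0.138), a small level beside the rise of CCND1.

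Cyclin D3 moved the other way. CCND3 (ENSG00000112576.12, chromosome 6 from 41934933 to 42050357, minus strand) had 342, 345 and 391 CPM in the control replicates and 224, 206 and 234 CPM in the knockdown replicates. Each knockdown library lay below each control library. The means were 360 ± 27.5 and 221 ± 13.8 CPM (SD, n = 3 per group; log2 fold change -0.70, SE 0.09, adjusted p = 1.11e-05).

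Cyclin D2 was close to unmeasured. CCND2 (ENSG00000118971.7, chromosome 12 from 4273772 to 4305350, plus strand) had 0, 1 and 0 reads in the control replicates and 0, 3 and 4 in the knockdown replicates, and the filter on low counts left it out. Over the summed reads, 7 against 1, the ratio of rates was 7.62 with a 95% exact interval of 0.979 to 344 that covers counting error only. A change was not detectable with so few reads.

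The leading D cyclin therefore differed between the groups. Per kilobase of annotated exon, CCND3 stood at 62.0 ± 4.74 and CCND1 at 34.9 ± 2.00 CPM per kb in the control, and the order was turned in the knockdown, with CCND1 at 169 ± 5.48 and CCND3 at 38.2 ± 2.38 CPM per kb (SD, n = 3 per group). CCND1 made up 36.8%, 38.4% and 33.0% of the summed D cyclin level per length in control replicates 1 to 3. In knockdown replicates 1 to 3 it made up 80.9%, 83.0% and 80.7%. The sum itself was 93.4 to 101 CPM per kb in the control and 202 to 210.0 CPM per kb in the knockdown. With the longest annotated transcript as the length, the share of CCND1 was 18.6% to 22.4% in the control and 65.9% to 69.4% in the knockdown, and the sum was 182 to 201 and 277 to 287 CPM per kb.

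**Figure D2:**
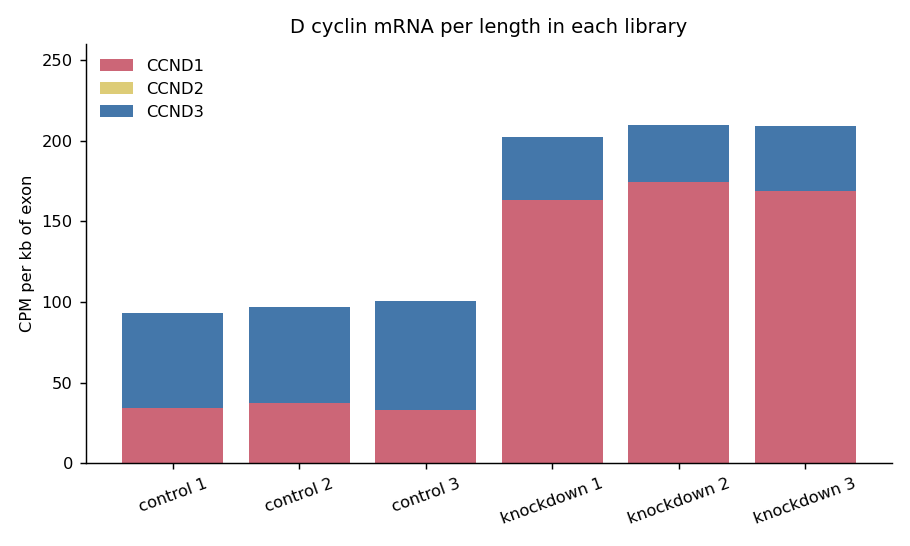
Stacked level of CCND1, CCND2 and CCND3 in CPM per kb of annotated exon (linear axis from 0) in each of the 6 libraries. CCND3 is the larger part in the control libraries and CCND1 in the knockdown libraries, where it makes up 80.7% to 83.0% of the sum; CCND2 is too low to be seen.

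Of the kinases that pair with D cyclins, CDK6 fell and CDK4 did not pass the test. CDK6 (ENSG00000105810.9, chromosome 7 from 92604921 to 92836594, minus strand) had 63.5, 58.7 and 44.9 CPM in the control replicates and 31.7, 30.9 and 27.6 CPM in the knockdown replicates. The groups did not overlap, although control replicate 3 lay nearer to the knockdown than the other controls did. The log2 fold change was -0.88 (SE 0.14, adjusted p = 5.53e-05). CDK4 (ENSG00000135446.16, chromosome 12 from 57747727 to 57756013, minus strand) had 62.5, 64.8 and 71.0 CPM in the control replicates and 60.2, 62.1 and 48.5 CPM in the knockdown replicates. The groups of CDK4 came within 1 CPM of each other without overlap, and its log2 fold change was -0.21 (SE 0.12, adjusted p = 0.148). Of the 3168 exon bases of CDK4, 1369 are shared with TSPAN31 on the opposite strand, and whether counting used strand is not stated in the labels. TSPAN31 had 36.1 ± 3.21 CPM in control libraries and 36.0 ± 4.93 CPM in the knockdown (SD, n = 3 per group; adjusted p = 0.987). MARCH9, which overlaps CDK4 without shared exon bases, fell (-0.54, adjusted p = 0.0165).

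Per length CDK4 was the more abundant of the pair. It stood at 20.9 ± 1.39 against 4.54 ± 0.786 CPM per kb for CDK6 in the control and at 18.0 ± 2.33 against 2.45 ± 0.178 CPM per kb in the knockdown (SD, n = 3 per group). Before division by length the means were 66.1 and 55.7 CPM in the control and 56.9 and 30.1 CPM in the knockdown. The gap thus rests largely on the 12260 annotated exon bases of CDK6, and how much of that length these cells use was not tested. Counts of CDK4 may also include reads of TSPAN31.

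The 3' untranslated region (UTR) of CDK6 is unusual in the set for its length of 10219 bases in the longest GENCODE annotation, against 531 to 5341 bases for the other 9 genes. It was searched for AGCTTA, a word picked because earlier results of these data had looked for it in genes that fell, so its presence in a member that fell supports nothing. The CDK6 UTR holds AGCTTA at 5 places, 1 of them inside CAGCTTAA. CDK4, CDKN1B, CCND2 and CCNE2 hold it once each, the last pair as AGCTTAA. The windows of CDK6, CDK4 and CDKN1B are shown to compare the letters beside the word, from GENCODE release 29 transcripts on GRCh38, 5′ to 3′, with AGCTTA in capitals.
CDK6 site 1 (chr7:92613883-92613906, minus strand): cgcagtctcAGCTTAtggtttatg
CDK6 site 2 (chr7:92613246-92613269, minus strand): attctttgcAGCTTAatgtgatat
CDK6 site 3 (chr7:92612366-92612389, minus strand): agtgactacAGCTTAttcttctgt
CDK6 site 4 (chr7:92609181-92609204, minus strand): acagaaagcAGCTTAttccttttg
CDK6 site 5 (chr7:92605641-92605664, minus strand): aagaaagaaAGCTTAtctctaagg
CDK4 site 1 (chr12:57748071-57748094, minus strand): gactgacaaAGCTTAgaaaggaac
CDKN1B site 1 (chr12:12721933-12721956, plus strand): ttaatttaaAGCTTActctgtcca
Site 2 of CDK6 carries the longer word CAGCTTAA, and sites 1, 3 and 4 lack only its last base. AGCTTA occurs in 24.5% of all 18799 annotated 3' UTRs of at least 50 bases and in 75.4% of the 1276 UTRs of at least 5000 bases, and CAGCTTAA in 2.79% and 12.5% of them. CCND3 and CDK2, which also fell, hold no AGCTTA, nor do CCND1, CCNE1 and RB1. A match is a description of these letters, and its part in the level of CDK6 was not tested.

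The kinase of the next step fell too. CDK2, which works with cyclin E and later cyclin A, had 72.0, 78.2 and 66.7 CPM in control replicates 1 to 3 and 35.5, 38.0 and 39.5 CPM in knockdown replicates 1 to 3 (ENSG00000123374.10, chromosome 12 from 55966769 to 55972784, plus strand). Every knockdown library was below every control library by a wide gap. Its mean went from 72.3 ± 5.72 to 37.7 ± 1.99 CPM (SD, n = 3 per group; log2 fold change -0.94, SE 0.11, adjusted p = 3.67e-06). CDK2 shares 89 exon bases with PMEL on the opposite strand, which stood at 9.73 ± 0.611 and 6.39 ± 1.81 CPM (SD, n = 3 per group) and fell too (adjusted p = 0.0345). It shares 565 more with the antisense gene AC025162.1, which is not among the counted symbols. Whether reads of AC025162.1 were counted for CDK2 was not tested.

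The E cyclins, which pair with CDK2 first, did not pass. CCNE1, which codes for cyclin E1 (ENSG00000105173.13, chromosome 19 from 29811898 to 29824308, plus strand), had 30.6, 29.3 and 37.2 CPM in the control replicates and 32.6, 40.1 and 42.2 CPM in the knockdown replicates. Control replicate 3 lay inside the knockdown range. CCNE1 differed by 0.24 on the log2 scale (SE 0.14, adjusted p = 0.176). CCNE2, which codes for cyclin E2 (ENSG00000175305.17, chromosome 8 from 94879770 to 94896678, minus strand), was near the lower limit, with 22, 29 and 15 reads in the control replicates and 7, 10 and 19 in the knockdown replicates.

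Knockdown replicate 3 set the spread of CCNE2, since its 2.59 CPM lay among the controls (1.37 to 2.79 CPM) and the other knockdown libraries were at 0.639 and 1.05 CPM. The log2 fold change was -0.70 (SE 0.46, adjusted p = 0.235), and without knockdown replicate 3 it was -1.37 (adjusted p = 0.0315). Over the summed reads, 36 against 66, the ratio of rates was 0.594 with a 95% exact interval of 0.384 to 0.905, which lies below 1 but covers counting error only, not the spread between libraries. CCNE2 shares 1629 of its 4397 exon bases with INTS8 on the opposite strand, which had 47.8 ± 1.38 and 49.4 ± 4.29 CPM (SD, n = 3 per group).

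CDKN1B codes for p27 (ENSG00000111276.10, chromosome 12 from 12715058 to 12722371, plus strand). It had 47.7, 48.5 and 53.4 CPM in the control replicates and 44.7, 39.3 and 46.0 CPM in the knockdown replicates. The groups lay close together without overlap, and the log2 fold change of -0.20 (SE 0.12, adjusted p = 0.171) did not pass.

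RB1, which codes for the pocket protein at the centre of the pathway (ENSG00000139687.15, chromosome 13 from 48303726 to 48599436, plus strand), had 6, 10 and 16 reads in the control replicates and 16, 10 and 4 in the knockdown replicates. In CPM the groups overlapped, from 0.667 to 1.46 in the control and from 0.546 to 1.46 in the knockdown. Over the summed reads, 30 against 32, the ratio of rates was 1.02 (95% exact interval 0.599 to 1.73, counting error only), and the log2 fold change was 0.01 (SE 0.47, adjusted p = 0.984). At 0.160 ± 0.0625 CPM per kb in the control (SD, n = 3), RB1 stood far below CDK4 and CDK2 per length. LPAR6, which lies within the span of RB1 on the opposite strand and shares 0 exon bases with it, was also low, at 2.83 ± 0.178 and 3.72 ± 0.964 CPM (SD, n = 3 per group; adjusted p = 0.267). RCBTB2, within the same span on the opposite strand, had 1, 9 and 3 reads in the control replicates and 22, 9 and 21 in the knockdown replicates. In CPM its groups did not overlap (0.111 to 0.867 and 0.943 to 2.87), and the filter on low counts left it untested. The pseudogene PCNPP5, also within that span, stood at 6.35 ± 1.16 and 7.21 ± 1.32 CPM (SD, n = 3 per group; adjusted p = 0.568). Of the 15 counted genes that overlap a member, 7 had 0 to 3 reads over all libraries, most of them non-coding genes or pseudogenes. In the whole table, which also lists non-coding genes and pseudogenes, 25004 of 54261 symbols had no read. That share does not say whether counts this low are usual for a protein-coding gene such as RB1. A low listing in this table is not read as absence from the cell. CCNH, a subunit of the CDK-activating kinase that dividing cells use, was listed at 2, 1 and 0 reads in the control and at 0 in the knockdown.

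**Figure D3:**
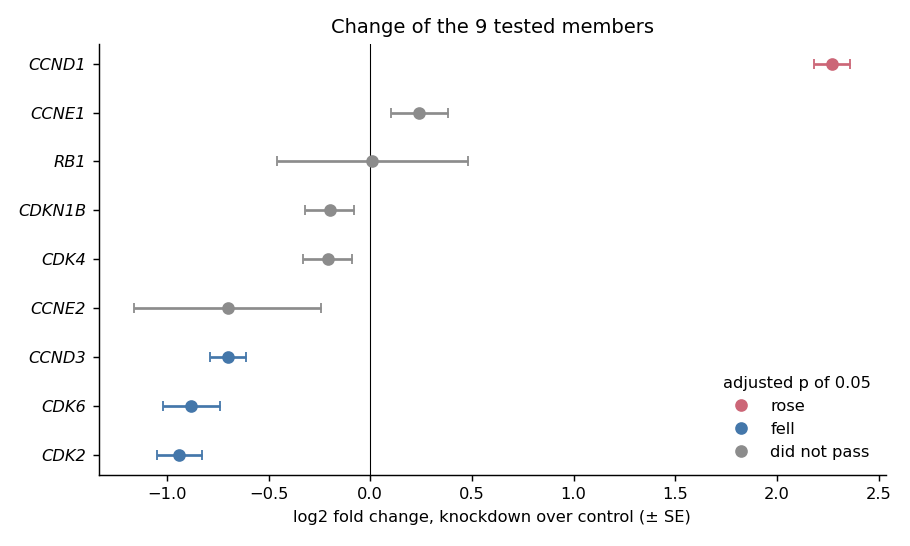
Log2 fold change of the 9 tested genes, knockdown over control, with bars of 1 SE, coloured by the edgeR call at an adjusted p of 0.05. CCND1 at 2.27 stands alone above 1, and CDK2, CDK6 and CCND3 lie between -0.94 and -0.70; CCNE2 has the same value as CCND3 with a far wider error.

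Per length, the order of the 10 genes in the control was CCND3, CCND1, CDK4, CDK2, CDKN1B, CCNE1, CDK6, CCNE2, RB1 and CCND2. CDK2 at 18.6 ± 1.47 and CDKN1B at 17.7 ± 1.09 CPM per kb lay within their spread of each other. In the knockdown CCND1 led, and CDK2 dropped behind CDKN1B and CCNE1, at 9.68 ± 0.511 against 15.4 ± 1.27 and 15.0 ± 1.98 CPM per kb (SD, n = 3 per group). CDKN1B and CCNE1 did not differ beyond their spread there. With the longest transcript as the length, CDK2 lay clear of CDKN1B in the control, at 27.8 ± 2.20 against 18.8 ± 1.15 CPM per kb. In the knockdown CDK2 then stood at 14.5 ± 0.767, CDKN1B at 16.3 ± 1.34 and CCNE1 at 18.8 ± 2.47 CPM per kb (SD, n = 3 per group), so the gap of CDK2 to CDKN1B was close to their spread.

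Ratios of members inside a library do not depend on how libraries are scaled, and 8 of them were compared. The reads of CCND1 to those of CCND3 stood at 0.485, 0.519 and 0.410 in the control replicates and at 3.52, 4.08 and 3.49 in the knockdown replicates, a difference of 2.97 on the log2 scale. CCNE1 to CDK2 went from 0.425, 0.375 and 0.557 to 0.918, 1.06 and 1.07, a difference of 1.18. The 2 groups lay apart. CDK2 to CDKN1B went from 1.51, 1.61 and 1.25 to 0.794, 0.968 and 0.858, a difference of -0.73. CDK6 to CDK4 went from 1.02, 0.905 and 0.633 to 0.527, 0.498 and 0.569, a difference of -0.65, with a wide spread in the control. In these 4 ratios, and in those of CCND1 to CDKN1B (difference 2.48) and to CDK4 (2.50), the groups did not overlap. Each of these 6 had p = 0.1 by a two-sided exact permutation test, the smallest that 3 against 3 libraries can give, and 0.133 adjusted over the 8. Those with CCND1 all carry its rise and are not separate results. No share over other gene pairs was computed, and single tested genes lay apart in 52.2% of cases. CCNE1 to CCNE2 (1.02, exact permutation p = 0.2) and CCND1 to CCND2 (0.67, exact permutation p = 0.8) overlapped, the latter resting on 8 reads of CCND2.

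Around the members, genes of the pathway were read from lists chosen by role. Beside the counts of each list stand the shares over all tested genes, 21.3% up and 20.7% down. No list was tested as a set. The other pocket proteins and the MuvB core, which together repress cell cycle genes, had 1 of 6 tested genes up and 0 down (median log2 fold change -0.06, against -0.00 over all tested genes). RBL1, which codes for the pocket protein p107, rose from 8.82 ± 1.01 to 15.6 ± 1.11 CPM (SD, n = 3 per group; 0.82, SE 0.17, adjusted p = 0.000975). RBL2, which codes for p130, had -0.30 (adjusted p = 0.238), LIN54 had -0.25 (0.337) and LIN37 had -0.13 (0.568).

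E2F factors and their DP partners moved both ways, with 2 up and 5 down of 9 tested (median -0.53). The repressor E2F6 had 15.9, 15.1 and 16.3 CPM in the control replicates and 37.6, 37.0 and 47.5 CPM in the knockdown replicates, a rise of 1.36 (SE 0.14, adjusted p = 7.10e-07). E2F4, named after its value was seen, rose by 0.32 (adjusted p = 0.0104). The atypical repressor E2F8 fell (-1.02, SE 0.20), as did the activator E2F2 (-0.69, SE 0.18) and TFDP1 (-0.60, SE 0.11), the DP partner. E2F1 (-0.53, adjusted p = 0.00492) and E2F7 (-0.55, adjusted p = 0.0164) fell as well and were named after their values were seen. Without control replicate 1, or at an adjusted p of 0.01, the number of E2F factors that rose was 1. Without knockdown replicate 1 it was 3.

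Among the other CDK inhibitors, 3 of 4 tested fell and none rose (median -1.31). The INK4 genes CDKN2C (p18) and CDKN2D (p19), whose products block CDK4 and CDK6, were lower in every knockdown library. CDKN2C went from 20.2 ± 0.849 to 7.97 ± 0.556 CPM (SD, n = 3 per group; -1.35, SE 0.16, adjusted p = 4.15e-06), and CDKN2D from 17.4 ± 3.89 to 5.68 ± 1.39 CPM (SD, n = 3 per group; -1.59, SE 0.21, adjusted p = 1.43e-05). CDKN1C (p57) fell by 1.28 on the log2 scale from a level of 4.96 ± 0.916 CPM (SD, n = 3; adjusted p = 0.00149). CDKN1A (p21), a target of p53, had 439 to 564 CPM in control libraries and 486 to 507 CPM in the knockdown (0.02, SE 0.10, adjusted p = 0.910), with a sign that turned under other scalings. CDKN2A and CDKN2B were listed at 0 in all 6 libraries, where a count of 3 would be 0.274 to 0.410 CPM.

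Of the enzymes that switch CDKs on, 1 of 3 tested rose and 0 fell (median 0.28). The phosphatase CDC25A rose from 7.63 ± 0.436 to 12.9 ± 1.16 CPM (SD, n = 3 per group; 0.75, SE 0.18, adjusted p = 0.00245). CDK7 (0.24, adjusted p = 0.109) and MNAT1 (0.28, adjusted p = 0.221), which with CCNH code for the CDK-activating kinase, did not pass. CCNH had too few reads to be tested.

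In the list of cyclin and p27 turnover, 3 of 11 rose and 3 fell (median 0.07), not far from the 21.3% and 20.7% of all tested genes. RBX1, the RING subunit of cullin ligases, fell from 55.0 ± 6.21 to 24.9 ± 2.59 CPM (SD, n = 3 per group; -1.15, SE 0.13, adjusted p = 2.22e-06). CKS1B (-0.74, SE 0.20) and SKP2 (-0.94, adjusted p = 0.0152; named after its value was seen), the factors that direct p27 to destruction, fell too. SKP1 (0.42, SE 0.10), GSK3B (0.45, SE 0.12), a kinase that marks cyclin D1 for export and decay, and FBXO31 (0.38, adjusted p = 0.0338; named after its value was seen) rose.

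Transcription factors known to act on CCND1 or CDKN1B were up in 4 and down in 1 of 9 tested (median 0.27). The AP-1 member FOSL1 rose from 29.8 ± 2.26 to 67.4 ± 6.43 CPM (SD, n = 3 per group; 1.17, SE 0.12, adjusted p = 6.77e-07). JUN (0.67, SE 0.13), the beta-catenin gene CTNNB1 (0.57, SE 0.09) and FOXO1 (0.78, adjusted p = 0.000798; named after its value was seen) rose. STAT3 had 366, 340 and 320 CPM in the control replicates and 153, 150 and 158 CPM in the knockdown replicates, a fall of 1.15 on the log2 scale (SE 0.09, adjusted p = 2.83e-08). Without control replicate 3 the number that fell was 2. These are mRNA levels, and no activity of the factors was measured.

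E2F target genes of the step from G1 to S phase fell in 14 of 18 cases and rose in 0 (median -0.41). The thymidine kinase TK1 went from 166 ± 14.5 to 52.3 ± 5.29 CPM (SD, n = 3 per group; -1.67, SE 0.11, adjusted p = 3.88e-09). The helicase subunit MCM4 (-0.94, SE 0.11), the thymidylate synthase TYMS (-0.88, SE 0.10) and the replication clamp PCNA (-0.59, SE 0.09) fell too. The 4 that did not pass, named after their values were seen, were CDC6 (-0.08), MCM3 (-0.21), POLA1 (-0.12) and SLBP (-0.04). The count of 14 was 9 without control replicate 2 and 8 without knockdown replicate 2 or at an adjusted p of 0.01.

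The cyclins that follow cyclin E fell as well, with 4 of 5 tested down and 0 up (median -1.12). CCNA2, whose product takes over CDK2 in S phase, went from 52.1 ± 5.79 to 24.0 ± 1.98 CPM (SD, n = 3 per group; -1.12, SE 0.13, adjusted p = 2.61e-06). The mitotic cyclins CCNB1 (-1.25, SE 0.09) and CCNB2 (-1.44, SE 0.11), and CCNF (-0.88, SE 0.16), fell. CDK1 did not pass (-0.45, adjusted p = 0.0771; named after its value was seen), with 45.4, 50.1 and 82.3 CPM in knockdown replicates 1 to 3 against 76.4 to 84.5 CPM in the control. The call of CDK1 rested on the setting and on knockdown replicate 3. CDK1 passed with upper quartile factors (-0.48, adjusted p = 0.0462), with no factors (-0.49, 0.0474), without the low-count filter (-0.45, 0.000777), with the 5 CPM filter (-0.49, 0.0483), with DESeq2 (-0.45, 0.0300), with limma-voom (-0.52, 0.0280) and without knockdown replicate 3 (-0.75, 0.000149).

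**Figure D4:**
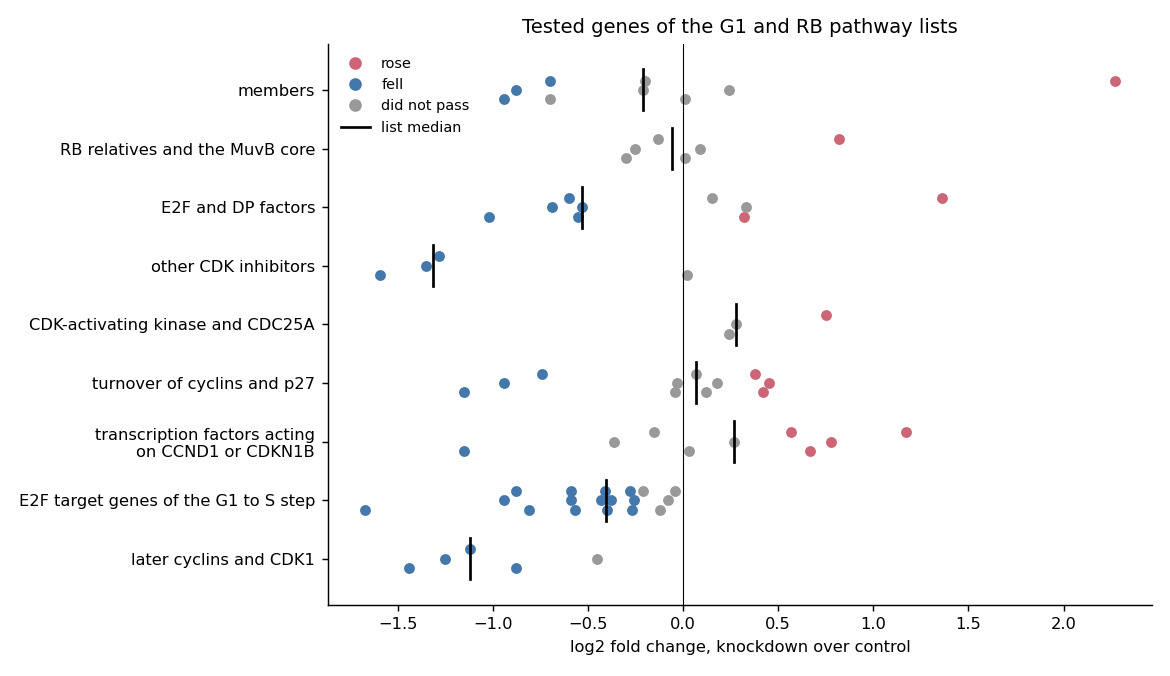
Log2 fold change, knockdown over control, of each tested gene in the set and in 8 lists of the pathway, 1 point per gene coloured by the edgeR call at an adjusted p of 0.05, with the list median as a vertical line. Tested E2F target genes all lie below 0, while E2F factors and turnover genes lie on both sides.

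Promoters were compared for the E2F word, spelled TTTCCCGC, TTTCGCGC, TTTGCCGC or TTTGGCGC on either strand, from 250 bases before to 50 after the start in the RefSeq table (GRCh38.p14). The word lay in 3.99% of the 27305 symbols of that table. It was in 10 of 15 matched E2F target genes and in 4 of 8 E2F and DP genes. The targets were chosen as such, so their high share is no separate result. Of the 6 matched members (CCND3, CCNE1, CDK4, CDK6, CDKN1B and RB1) 0 held the word, which is no contrast to a share of 3.99%. CCND1, CCND2, CCNE2 and CDK2 were not analysed here. Not shown are CDC6, MCM3, POLA1 and CDK1, which hold the word and did not pass. Also not shown are MCM2, MCM6, MCM7 and TYMS, which hold it and fell, and LIN52 and E2F3, which were not tested. The windows below set side by side the only listed genes with the word that rose (RBL1 and CDC25A) and some that fell (the other 6). They are in lower case with the word or its reverse complement in capitals.
RBL1 (chr20:37096001-37096028, minus strand): cagatTTTCGCGCgcTTTGGCGCaggtg
CDC25A (chr3:48188444-48188471, minus strand): gtggattccgTTTGGCGCcaactaggaa
E2F1 (chr20:33686395-33686421, minus strand): ttcGCGGCAAAaaggaTTTGGCGCgta
E2F2 (chr1:23531258-23531285, minus strand): cggcacgacgTTTGGCGCtaaaaaaaaa
TFDP1 (chr13:113584623-113584650, plus strand): ggcgccgaagGCGCGAAAaggcgcgcag
CDT1 (chr16:88803744-88803771, plus strand): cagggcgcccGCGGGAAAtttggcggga
PCNA (chr20:5126664-5126691, minus strand): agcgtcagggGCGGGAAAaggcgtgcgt
UNG (chr12:109098099-109098126, plus strand): agggaggtttTTTGCCGCgaaaagacca
RBL1 and E2F1 both hold the word at 2 places, and they moved in opposite directions. CDC25A and E2F2 share the spelling TTTGGCGC and moved in opposite directions too. These pairs were picked to set a gene that rose beside one that fell. Among the listed genes with the word, far more fell than rose, and a link of the word to direction was not tested. CDT1 (-0.81, adjusted p = 0.000125) and UNG (-0.38, adjusted p = 0.0112), chosen here for their windows after their values were seen, fell. A match is no evidence that a factor binds there.

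The genes whose pattern over the 6 libraries was most like that of CCND1 were PMEPA1, MIR22HG and OTUB2, by the root mean square distance of centred log2 CPM among 9491 genes whose mean reached 10 CPM. Their distances were 0.134, 0.142 and 0.159. The distance spans both groups, so it mainly returns genes of a similar change, here log2 fold changes of 2.08, 2.19 and 2.34 beside 2.27 for CCND1. MIR22HG reached the mean of 10 CPM only through the knockdown libraries. PMEPA1 went from 115 ± 1.74 to 485 ± 31.3 CPM, MIR22HG from 8.51 ± 0.725 to 38.7 ± 4.73 CPM and OTUB2 from 12.9 ± 1.96 to 65.1 ± 5.85 CPM (SD, n = 3 per group).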

How the data were processed

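The authors prepared the libraries from total RNA with an Ion Proton kit, per the labels' protocols, and deposited raw counts of reads per gene symbol. The build is GRCh38 (submitters' processing notes); no source used here names the aligner, the counter, the annotation or a strand setting.

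The whole table was fitted with edgeR 4.0.16 (R 4.3.3; filterByExpr, TMM, robust quasi-likelihood F test), and p-values were adjusted by Benjamini-Hochberg over 15391 genes. CPM use TMM-adjusted library sizes. The SE is the log2 fold change divided by the square root of F, an approximation. The code was tested on simulated data. Ratios used a pseudocount of 0.5 reads. Exon lengths, positions and 3' UTRs came from GENCODE release 29, promoters from RefSeq. Alternatives were other factors (RLE, upper quartile, none), other filters, DESeq2 1.42.0, limma-voom (limma 3.58.1), a replicate block, an adjusted p of 0.01 and leaving out each library.

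The members and lists were chosen with earlier results of these data known. Named are all members, MYLK-AS1, genes overlapping a member, up to 4 genes of lowest p per list, list genes called with a log2 fold change of at least 1 in size, and the 3 genes most like a member so called. No replicate pair agreed within sampling noise (chi-square per degree of freedom of 2.25 or more).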

Additional observations from a re-analysis of the deposited data

How the results depend on the processing

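Under all 15 alternatives the member that rose was 1 in number and those that fell were 3, except 4 without knockdown replicate 3, where CCNE2 passed. CCND1 ranged from 2.24 to 2.32 (log2), CCND3 from -0.74 to -0.64, CDK6 from -1.02 to -0.79 while CDK2 stayed at -0.88 or lower, with adjusted p-values of 0.000649 or less. CCNE1, CDK4 and CDKN1B did not pass under any alternative (lowest adjusted p 0.0526, 0.0888 and 0.0967). Over the pathway lists the number that rose ran from 9 to 11 and the number that fell from 22 to 32, against 11 and 30. RB1, not called, changed sign with upper quartile factors (-0.01), with no factors (-0.01), with limma-voom (-0.00), and when 1 of 3 libraries was left out, control 1 (-0.21), control 2 (-0.04) or knockdown 1 (-0.34), with a range of -0.34 to 0.35 over the 6 libraries left out in turn. CDKN1A, not called, did so with upper quartile factors (-0.01), with no factors (-0.01), with a filter of 5 CPM in 3 libraries (-0.02), and without control replicate 1 (-0.02) or 2 (-0.06), with a range of -0.06 to 0.13. The ratio of CCND1 to CCND2 changed sign without knockdown replicate 1 (-0.43; range -0.43 to 1.42). The cause was not tested for these.

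With the replicate number as a block, 1 member rose and 3 fell, and of all genes 3321 rose and 3200 fell, against 3274 and 3183 without it. CDK1 passed with the block (-0.49, adjusted p = 0.0134). The pairing of numbers rests on the labels alone. Deviations of same-numbered libraries correlated at -0.160, 0.160 and 0.106, and control replicate 1 correlated best with knockdown replicate 2 (0.232), so the numbers were not taken to pair the samples. Few reads limit CCND2, RB1 and CCNE2, and why they are few was not tested. Lengths taken from the longest transcript changed levels per kb but not which D cyclin led.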
